A study of Mus musculus with 18 samples.

Results

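The comparison set mammary cells of mice carrying the Esr1 D542G mutation against cells of wild-type (WT) mice, both sorted into a gate that the labels call N. Esr1 encodes estrogen receptor alpha, and the mutation lies in its ligand-binding domain. The 3 D542G N libraries and the 3 WT N libraries were 6 of the 18 RNA-seq libraries of the study and were taken by their labels alone. The other 12 libraries were the N cells of mice with a second Esr1 mutation, Y541S, and the mature luminal (ML) cells of the 3 genotypes, with 3 libraries per group. All mice, WT included, were 6 months old, carried pellets of estradiol (E2) and progesterone (P4), and received giredestrant at 30 mg/kg by mouth daily for 4 days. No vehicle group was analysed here, so the levels describe tissue under hormone and antagonist together. The labels give neither the zygosity of the allele nor the sort markers, and they describe the source of the N cells, too, as mature luminal cells.

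Estrogen receptor alpha is a ligand-activated transcription factor. In the mammary epithelium it is carried by hormone-sensing luminal cells, which also hold the progesterone receptor and the pioneer factor Foxa1 and which signal to their neighbours through secreted factors. Mutations of this region in human breast cancers let the receptor act without ligand, and giredestrant is an oral antagonist that binds the receptor and promotes its degradation. Basal and myoepithelial cells, the other epithelial lineage, contract in response to oxytocin and express Krt5, Krt14 and Trp63.

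The libraries held 34797778 to 49507144 counts over the series, and between 37106123 and 49507144 in the 6 N libraries. Levels are given below as CPM, a gene's count relative to its library's total after scaling by TMM factors, and libraries by genotype, gate and sample number. The 3 D542G N libraries lay close together, with a median within-group SD of 0.197 in log2(CPM + 1) over the 10000 genes used, against 0.394 in WT N and 0.165 in WT N without sample 3. WT N 3 stood apart. On the first principal component, which held 45.3% of the variance, the D542G N libraries lay at 33.4 to 41.6, WT N 1 and 2 both at 78.1, WT N 3 at -7.54 and the ML libraries at negative values. The library closest to WT N 3 was WT ML 3 (r = 0.872 across genes), while WT N 1 and 2 were closest to each other (r = 0.965). Results are therefore given with all libraries and, for most genes named below whose call changed, also without WT N 3. Fold changes of genes called in both fits are mostly given with all libraries only. Some of these moved without WT N 3, such as Adam28 from 4.76 to 7.33 and Dcaf12l1 from 4.4 to 3.81. D542G N 1 to 3 correlated with WT N 3 at 0.814, 0.849 and 0.806. The values were 0.782, 0.846 and 0.787 with WT N 1 and 0.766, 0.836 and 0.762 with WT N 2. By this measure, leaving out WT N 3 removes the WT N library most like D542G N.

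The marker lists showed what the gates held. The summed level of the 20-gene pan-luminal list was 8770, 8280 and 6770 CPM in D542G N 1 to 3, against 3260, 4330 and 21200 CPM in WT N 1 to 3. Hormone-sensing luminal genes summed to 3320, 3710 and 3540 CPM in D542G N and to 1580, 1620 and 9500 CPM in WT N. For both lists the D542G N libraries lay above WT N 1 and 2 and below WT N 3. Basal and myoepithelial genes summed to 19400, 17900 and 19700 CPM in D542G N, against 37400, 45900 and 8210 CPM in WT N. Differentiating epidermis genes such as Krt1 and Krt10, the keratins of suprabasal skin, summed to 539, 1430 and 607 CPM in D542G N, against 6580, 14000 and 943 CPM in WT N. The N cells of both genotypes thus carried basal markers beside luminal ones, which goes beyond the luminal source that the labels name. Ptprc, the pan-leukocyte antigen, was at 0.311, 2.61 and 0.0704 CPM in D542G N and at 0, 0.569 and 0.641 CPM in WT N. Macrophage and dendritic genes summed to 37.4, 132 and 20.4 CPM in D542G N, against 57.1, 47.1 and 296 CPM in WT N, where WT N 3 was the highest of the 6. For erythroid genes the sums were 39.3, 45.1 and 266 CPM in D542G N, against 138, 73.1 and 227 CPM in WT N. Adipocyte genes gave 113, 206 and 350 CPM in D542G N, against 472, 329 and 510 CPM in WT N. Fibroblast genes gave between 413 and 517 CPM in D542G N, against 200 to 307 CPM in WT N. The part of these cell types in the results was not tested. In sorted bulk cells, fewer cells of a type and less RNA per cell cannot be told apart.

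**Figure D1:**
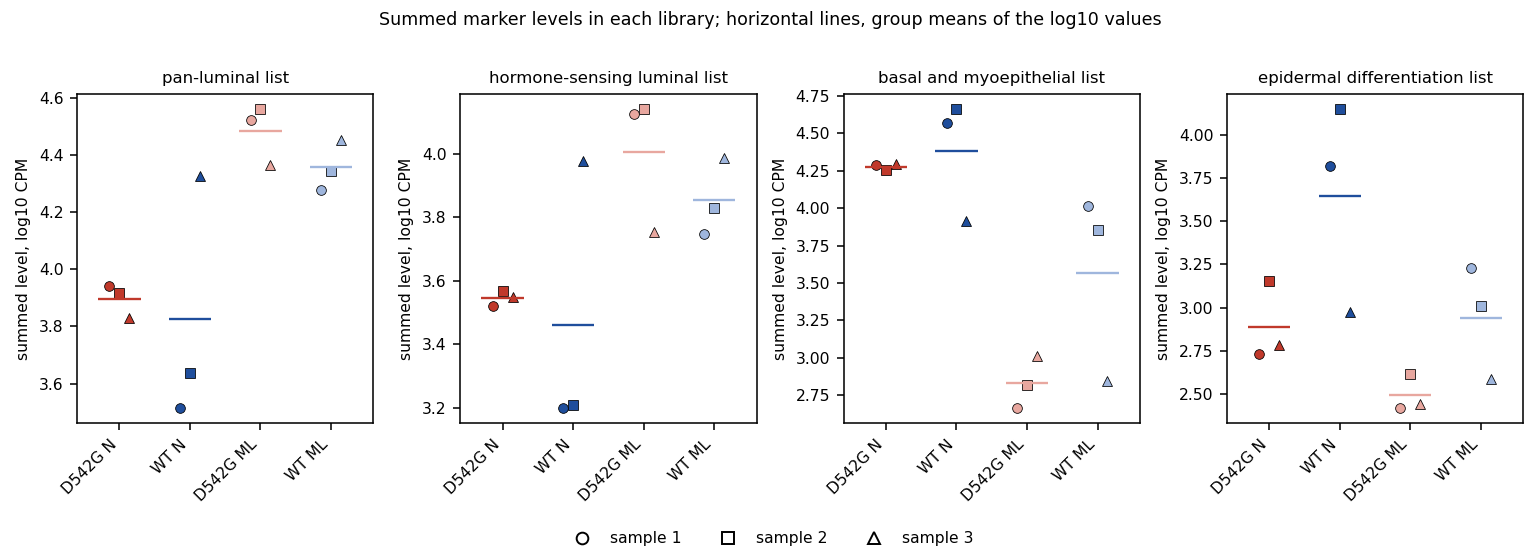
Summed levels (log10 CPM, vertical axis) of 4 marker lists in each D542G and WT library of the N and ML gates, with symbols for sample numbers and horizontal lines for group means. WT N 3 lies with the ML libraries for luminal genes (21200 CPM for the pan-luminal list), while the 3 D542G N libraries stay between 6770 and 8770 CPM.

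Esr1 itself was measured first. Its level was 313, 250 and 237 CPM in D542G N, against 10.7, 14.9 and 307 CPM in WT N. The groups overlapped through WT N 3 alone, the other WT N libraries lying far below every D542G N library. With all libraries the log2 fold change was 1.27 ± 0.96 (SE) with an adjusted p of 0.521 in edgeR's quasi-likelihood test, and without WT N 3 it was 4.38 ± 0.75 with an adjusted p of 0.00539. In the ML gate Esr1 was at 161, 164 and 216 CPM in D542G and at 118, 187 and 455 CPM in WT, a log2 difference of -0.49 (adjusted p = 0.967). Counts per gene do not show the mutated base, so the genotype was taken from the labels.

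Of 18298 genes tested, 294 (1.61%) were higher and 150 (0.82%) lower in D542G N than in WT N at an adjusted p below 0.05. In the fit that leaves out WT N 3, 806 of 19137 genes (4.21%) were higher and 536 (2.8%) lower. The smaller lists lay mostly within the larger ones: 256 of the 294 higher genes (87.1%, and 31.8% of the 806) and 134 of the 150 lower genes (89.3%, and 25% of the 536) were called in both fits. Among the 550 genes that were higher only without WT N 3, that library stood above both other WT N libraries in 543 and above the lowest D542G N library in 322. Among the 402 that were lower only without it, it stood below both others in 396. The 3 D542G N libraries lay above all 15 other libraries of the study for 135 of the 294 higher genes, against 2.49% of all genes tested, and below all of them for 62 of the 150 lower genes, against 1.18%. These genes were chosen for a difference in 6 of the same libraries, so the shares are descriptive. Whichever of the 6 libraries was dropped, 58 of the higher genes (19.7%) and 10 of the lower (6.67%) kept their call, and those named below are marked. Without D542G N 1, 2 or 3 the counts were 80 and 12, 132 and 49, and 83 and 13, and without WT N 1 or 2 they were 102 and 33, and 93 and 32. In the paragraphs that follow, D1 to D3 stand for D542G N 1 to 3 and W1 to W3 for WT N 1 to 3 where left-out libraries are listed.

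**Figure D2:**
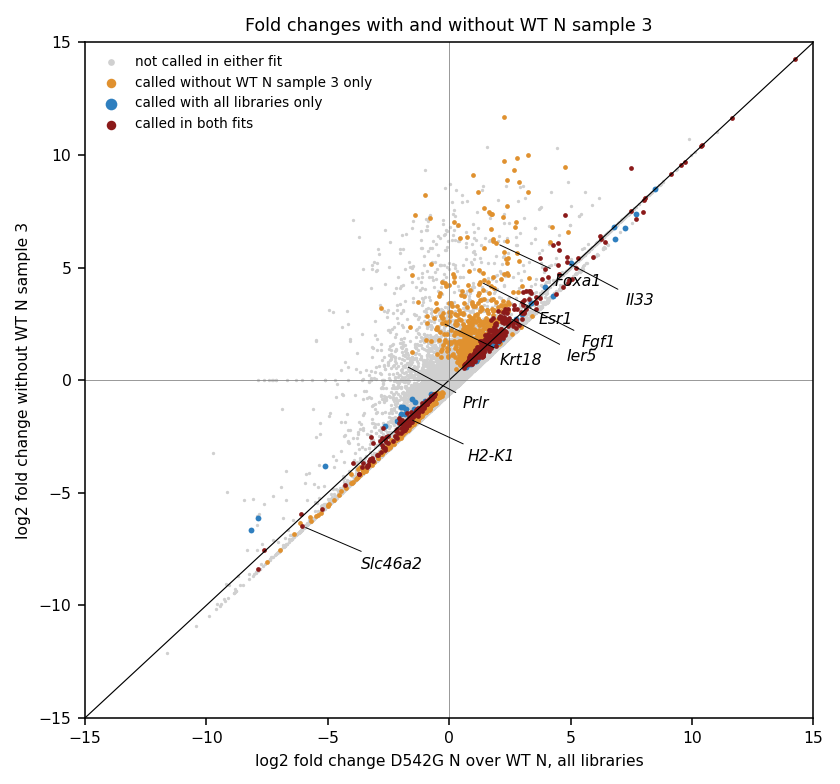
Log2 fold change of D542G N over WT N for every gene tested in both fits, with all libraries (horizontal axis) and without WT N 3 (vertical axis); colours give the fits in which a gene was called, and the line marks equal values. Esr1, Foxa1 and Krt18 lie well above the line, at 4.38, 6.08 and 2.56 without WT N 3, while Ier5, Fgf1 and Il33 lie near it.

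The genes that rose furthest in D542G N cells included En2, an engrailed homeobox transcription factor, and Il33, an alarmin cytokine of the interleukin-1 family. En2 was at 80, 42.7 and 49.9 CPM in D542G N and had no count in any WT N library. Taken against a floor of 3 counts per library, its level was at least 760-fold higher in D542G N (adjusted p = 0.0349). In the Y541S N libraries En2 was at 1.91, 0 and 0 CPM, so among the N libraries the high levels were those of D542G. Il33 was at 6720, 6330 and 6150 CPM in D542G N, against 129, 212 and 325 CPM in WT N (log2 fold change 4.85 ± 1.12, adjusted p = 0.0379). The 2 groups were far apart, and the lowest D542G N library also exceeded Y541S N, which had 1170, 509 and 338 CPM.

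Dsc2, a desmosomal cadherin, and Sncaip, which encodes the synuclein-binding protein synphilin, were called with each library left out, as was Prune2. Dsc2 was at 437, 387 and 439 CPM in D542G N, against 7.85, 7.47 and 39.8 CPM in WT N (4.52 ± 0.73, adjusted p = 0.00675). Sncaip was at 179, 198 and 183 CPM in D542G N, against 8.15, 6.13 and 9.72 CPM in WT N (4.54 ± 0.53, adjusted p = 0.00112). Both genes showed little spread among the D542G N libraries and, like all 294 higher genes, no overlap with WT N. Prune2 was at 104, 122 and 220 CPM in D542G N and at 2.54, 1.78 and 15.3 CPM in WT N (4.5 ± 0.79, adjusted p = 0.00971). Also among the 12 highest were Crabp1, a retinoic acid-binding protein, Olfml2a, an olfactomedin-like matrix protein, Adam28, a disintegrin metalloprotease, Aspa, the aspartoacylase, Dcaf12l1 and Sel1l3, with log2 fold changes between 4.28 and 5.01. Olfml2a was at 506, 441 and 405 CPM in D542G N, against 11.6, 8.82 and 25.9 CPM in WT N.

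The direction of these genes held with each library left out, which the rule of no overlap all but fixed in advance. For 8 of them the call did not hold with each library left out in turn. It was lost without D1, D2, D3, W1 or W2 for En2 (adjusted p 0.0724 to 0.115), Il33 (0.0746 to 0.133), Adam28 (0.0651 to 0.144), Dcaf12l1 (0.0745 to 0.14) and Crabp1 (0.0533 to 0.148, there also without W3). It was lost without D1, W1 or W2 for Olfml2a (0.05 to 0.0719), without these or D3 for Sel1l3 (0.0657 to 0.0821), and without D1, D2, D3 or W2 for Aspa (0.0639 to 0.092). By the rule that chose them, none of these genes had overlapping D542G N and WT N libraries.

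**Figure D3:**
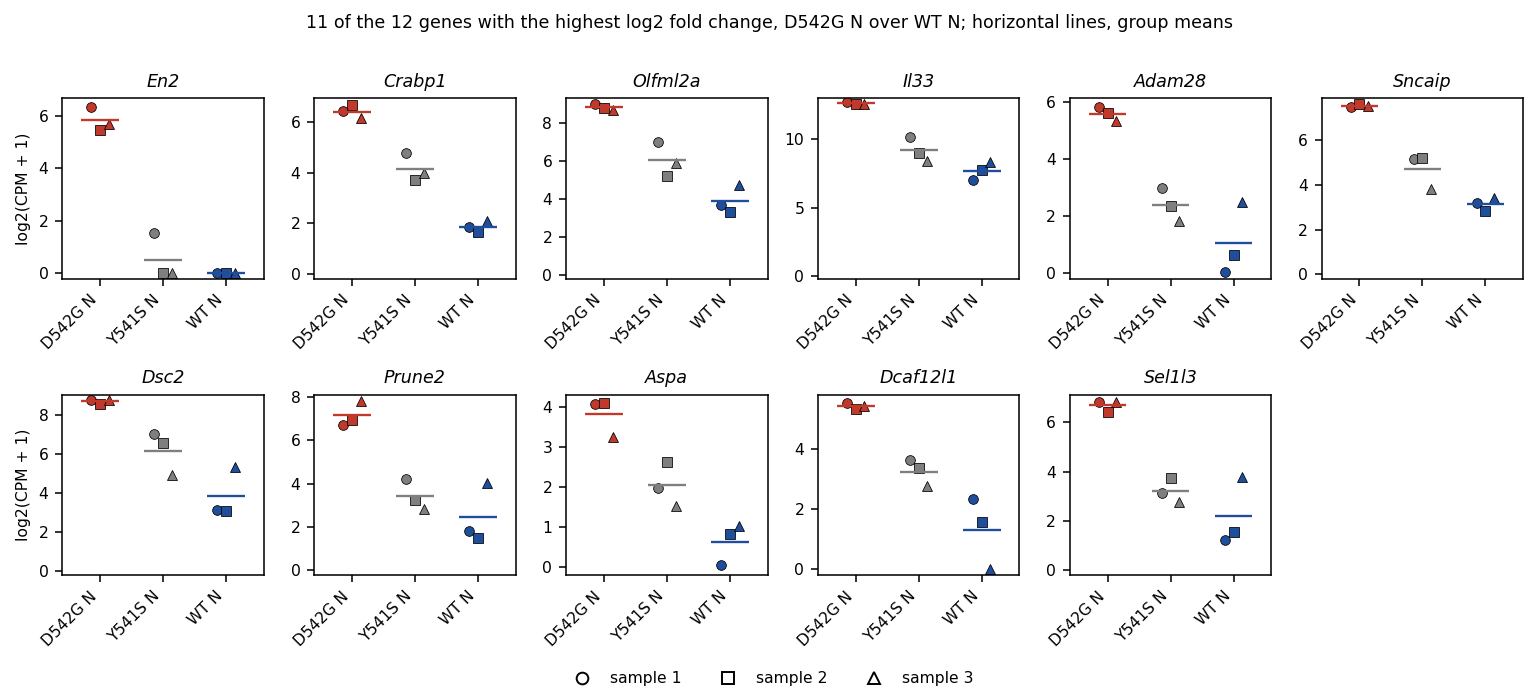
Levels in log2(CPM + 1) of 11 of the 12 genes with the highest log2 fold changes in each D542G N, Y541S N and WT N library, with symbols for sample numbers and horizontal lines for group means. All D542G N points lie above all WT N points, and En2 is at 0 in the 3 WT N libraries.

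Several genes of fibroblast growth factor signalling and its ERK-induced feedback rose. The lists and their members were chosen with earlier results of these data known, so list counts and shares, here and below, are descriptive. Of the 24 genes listed for fibroblast growth factor and IGF signalling, 22 passed the filter on low counts, and the 6 genes called were higher (1.61% of all genes tested were), with a median log2 fold change of 0.91 against -0.06 over all genes tested. In 10 genes of the list every D542G N library lay above every WT N library and in 3 below, against 13% and 11% of all genes tested. The ligand Fgf1 was at 308, 307 and 320 CPM in D542G N, against 31.1, 29.7 and 53 CPM in WT N (3.04 ± 0.32, adjusted p = 0.000562). Its level was about equal in the 3 D542G N libraries and well above every WT N library. The receptor Fgfr1 was at 237, 216 and 238 CPM in D542G N, against 86.8, 58.5 and 128 CPM in WT N (1.34 ± 0.31, adjusted p = 0.0386). Etv4 and Etv5, ETS factors induced by fibroblast growth factor receptors, changed by 3 ± 0.45 (adjusted p = 0.00479) and 1.95 ± 0.45 (0.0382). Etv4 was at 66.7, 76.8 and 64.3 CPM in D542G N and at 12.3, 8.74 and 4.86 CPM in WT N. The feedback inhibitors Spry2 and Dusp6, named here after their values were seen, changed by 1.47 ± 0.36 (adjusted p = 0.0476) and 1.16 ± 0.29 (0.05, under the threshold before rounding). The list had 5 higher and 1 lower of 23 members without WT N 3, the lower one being the IGF-binding protein Igfbp3 (lost without D1, D3, W1 or W2 as well, at 0.0563 to 0.163). Fgf1 and Etv4 were called with each library left out. The call was lost without D1, D2, D3, W1 or W2 for Fgfr1 (0.0828 to 0.133) and Spry2 (0.0541 to 0.201, also without W3), and without D1, D2, D3 or W2 for Etv5 (0.0901 to 0.114) and Dusp6 (0.0796 to 0.205).

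Ier5, an immediate early gene that acts with heat shock factor, was the only one of 24 immediate early genes called (1.61% of all genes tested were called higher). It was at 1530, 1370 and 1350 CPM in D542G N, against 205, 211 and 360 CPM in WT N (2.45 ± 0.23, adjusted p = 0.00031). The groups were separated more than 3-fold at their nearest libraries, and the call held with each library left out. The D542G N levels were also above those of Y541S N, at 310, 352 and 369 CPM (log2 difference 2.04, adjusted p = 0.000855). Myc and Dusp1 of the same list were lower when WT N 3 was left out, by log2 fold changes of -1.08 and -1.58, calls that were lost without W1 or W2 as well (0.0519 to 0.0844 over both genes). Errfi1, a feedback inhibitor of the EGF receptor, was at 1970, 1720 and 2410 CPM in D542G N, against 1230, 1000 and 593 CPM in WT N (1.11 ± 0.28, adjusted p = 0.0498), and its call was lost with any 1 of the 6 libraries left out (0.0532 to 0.175).

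Components of latent TGF-beta were higher as well. Of 24 genes of the TGF-beta and BMP list, the 4 called were higher (1.61% of all genes tested were), with a median log2 fold change of 0.43 against -0.06 over all genes. In 10 of the 24 every D542G N library lay above every WT N library and in 3 below, against 13% and 11% of all genes tested. The ligand Tgfb1 was at 69.7, 54.7 and 70.3 CPM in D542G N, against 28.8, 24.9 and 26 CPM in WT N (1.29 ± 0.16, adjusted p = 0.00188). Its binding proteins Ltbp1 and Ltbp2, which hold the latent ligand in the matrix, changed by 3.56 ± 0.45 (adjusted p = 0.00188) and 1.85 ± 0.36 (0.0189). Ltbp1 was at 346, 286 and 282 CPM in D542G N and at 17.2, 40.2 and 19.8 CPM in WT N. Skil, a repressor of Smad signalling that was named after its values were seen, changed by 1.08 ± 0.26 (adjusted p = 0.04). Tgfb1 and Ltbp1 were called with each library left out, Ltbp2 was not without D1, D3, W1 or W2 (0.0639 to 0.0895), and Skil was not with any 1 of the 6 left out (0.0507 to 0.159). The ligand Bmp2, named after its values were seen, was lower when WT N 3 was left out: its levels were 2.89, 10.1 and 7.44 CPM in D542G N, against 80.8, 96.2 and 15.6 CPM in WT N (-3.7 ± 0.97, adjusted p = 0.0353, lost with any further library left out at 0.0677 to 0.146).

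Lamb1, a laminin chain of the basement membrane, was at 400, 301 and 298 CPM in D542G N, against 80.1, 35.9 and 26.2 CPM in WT N (2.81 ± 0.47, adjusted p = 0.00786), and it was the 1 gene called among 20 basement membrane and integrin genes. Icam1, the adhesion ligand of leukocyte integrins, averaged 1970 ± 247 CPM in D542G N and 459 ± 131 CPM in WT N (SD, n = 3 each; 2.1 ± 0.31, adjusted p = 0.00498). Both genes were called with each library left out. In neither did the groups overlap, as in all 294 higher genes. Icam1 and Il33 were the 2 of 22 tested genes of the NF-kappaB and inflammatory list that rose, and the median of that list was 0.06. Of 28 Wnt genes, the receptor genes Lgr6 and Fzd7 rose by 1.63 ± 0.32 (adjusted p = 0.0182) and 1.23 ± 0.23 (0.0142). The median of the Wnt list was -0.05. In 9 of its genes every D542G N library lay above every WT N library and in 6 below, against 13% and 11% of all genes tested. Beside the list counts of this paragraph, 1.61% of all genes tested were called higher and 0.82% lower. Lgr6 was at 311, 264 and 232 CPM in D542G N, against 92.9, 124 and 44.2 CPM in WT N. Calls were lost without D1 or W1 for Lgr6 (0.0574 to 0.0843) and without D1 or W2 for Fzd7 (0.0522 to 0.083).

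Among 30 genes known as estrogen-responsive, 27 were tested, 3 were higher and 1 lower (1.61% and 0.82% of all genes tested), with a median log2 fold change of -0.09 against -0.06 over all genes. Nrip1, a corepressor that binds the ligand-bound estrogen receptor, was at 1010, 771 and 1050 CPM in D542G N, against 377, 351 and 346 CPM in WT N (1.4 ± 0.18, adjusted p = 0.00202). Rerg, an estrogen-regulated small GTPase that restrains growth, was at 128, 122 and 132 CPM in D542G N, against 22.9, 9.67 and 11.9 CPM in WT N (3.1 ± 0.44, adjusted p = 0.0035). Both were called with each library left out. Neither showed overlap, which held for all 294 higher genes. Myb, a transcription factor whose transcription the receptor promotes in human breast cancer cells, was at 132, 174 and 119 CPM in D542G N, against 3.7, 2.92 and 25.4 CPM in WT N (3.73 ± 0.8, adjusted p = 0.0258, lost without D1, D2, D3, W1 or W2 at 0.065 to 0.0975). Ltf, the milk iron-binding protein lactoferrin, fell to 118, 192 and 38.4 CPM in D542G N, against 433, 1020 and 745 CPM in WT N (-2.66 ± 0.61, adjusted p = 0.0349, lost without D1, D3, W1 or W2 at 0.0516 to 0.145). Greb1, a receptor cofactor and a common readout of receptor activity, was at 7.62, 10.5 and 6.36 CPM in D542G N and at 2.64, 1.99 and 6.86 CPM in WT N (1.09 ± 0.46, adjusted p = 0.224). The list had 6 higher and 3 lower genes when WT N 3 was left out (4.21% and 2.8% of all genes in that fit), with Greb1 (1.82, adjusted p = 0.024), Pgr and Stc2 among the higher and Fkbp5 and Myc among the lower. The median was then 0.66, against 0 over all genes tested. Calls without WT N 3 were lost without D1, D2, W1 or W2 for Greb1 (0.0556 to 0.21) and without W1 or W2 for Stc2 (0.0943 to 0.148) and Myc (0.0613 to 0.0828), and with any further library left out for Fkbp5 (0.067 to 0.195).

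Upstream sequences are shown for 4 genes that rose, to set the estrogen-responsive genes Nrip1 and Myb beside Il33 and Ier5, which are not on that list. They are the 250 bases before the RefSeq start (GRCm38.p6), in the direction of transcription, with any estrogen response half-site in capitals, spelled GGTCA or, on the other strand, TGACC. The windows are chr16:76373828-76374077 on the minus strand for Nrip1 (the first of 2 starts in the table), chr10:21160985-21161234 on the minus strand for Myb, chr19:29924863-29925112 on the plus strand for Il33 (the first of 2 starts) and chr1:155099637-155099886 on the minus strand for Ier5.
Nrip1: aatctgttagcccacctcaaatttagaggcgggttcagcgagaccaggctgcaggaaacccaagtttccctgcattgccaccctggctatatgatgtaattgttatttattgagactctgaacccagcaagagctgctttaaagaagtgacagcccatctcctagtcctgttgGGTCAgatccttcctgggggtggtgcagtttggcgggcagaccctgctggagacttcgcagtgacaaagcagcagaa
Myb: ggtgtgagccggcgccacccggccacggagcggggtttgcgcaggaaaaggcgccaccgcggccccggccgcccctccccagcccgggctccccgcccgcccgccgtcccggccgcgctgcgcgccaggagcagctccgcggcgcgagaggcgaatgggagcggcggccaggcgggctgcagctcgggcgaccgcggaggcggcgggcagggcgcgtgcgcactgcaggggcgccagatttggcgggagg
Il33: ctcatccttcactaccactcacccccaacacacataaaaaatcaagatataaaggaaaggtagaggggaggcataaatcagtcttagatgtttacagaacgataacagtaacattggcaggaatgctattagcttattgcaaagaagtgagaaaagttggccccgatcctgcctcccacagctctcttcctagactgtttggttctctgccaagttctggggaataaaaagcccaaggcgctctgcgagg
Ier5: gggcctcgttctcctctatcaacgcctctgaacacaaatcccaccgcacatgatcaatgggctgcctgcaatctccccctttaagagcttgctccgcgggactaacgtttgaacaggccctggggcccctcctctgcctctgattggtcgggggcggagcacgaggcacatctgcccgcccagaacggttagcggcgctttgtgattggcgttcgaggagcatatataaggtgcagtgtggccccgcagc
The Nrip1 window held 1 half-site and the other 3 windows none. A half-site on either strand was present in 35.2% of the 32851 windows of the table, and the full palindrome, GGTCA and then TGACC with any 3 bases between them, which counts as half-sites too, in 0.0639%. Of the 12 genes with the highest fold changes, 6 had a window in the table, and 2 of their 8 windows held a half-site and 0 the palindrome. For the 12 lowest genes, 4 of 14 windows held a half-site and 0 the palindrome. These matches describe the letters in the windows alone.

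The luminal and hormone-sensing genes were the group that turned on WT N 3. With all libraries, 0 of 23 hormone-sensing and 0 of 17 pan-luminal genes tested were called by edgeR. At an unadjusted p under 0.05 there were 1 higher and 2 lower in the hormone-sensing list and 0 and 2 in the pan-luminal list, DESeq2 called 0 and 1 in each, and limma-voom, which gave WT N 3 little weight, called 9 and 1 and 10 and 1. Over all genes tested DESeq2 called 4.77% higher and 4.6% lower, and limma-voom 11.4% and 11%. Without that library 6 of 24 hormone-sensing genes were called, all higher (4.21% of all genes in that fit were), with a list median log2 fold change of 1.89, and 6 of 17 pan-luminal genes were higher and 1 lower, with a median of 1.15. Foxa1, the pioneer factor that opens chromatin for the receptor, was at 816, 651 and 823 CPM in D542G N, against 7.87, 14.7 and 573 CPM in WT N. Pgr, the progesterone receptor, was at 24.2, 27.1 and 19.4 CPM in D542G N, against 0.201, 1.94 and 24.3 CPM in WT N. Both genes, like Esr1, were high in the D542G N libraries and in WT N 3 and low in WT N 1 and 2. Without WT N 3 the log2 fold changes were 6.08 ± 0.93 for Foxa1 (adjusted p = 0.00309) and 4.46 ± 0.97 for Pgr (0.0161), against 1.94 (0.39) and 1.42 (0.509) with it. Cldn10, a claudin, was at 309, 302 and 267 CPM in D542G N and at 29.7, 7.16 and 297 CPM in WT N (3.99 ± 0.71 without WT N 3, adjusted p = 0.00638). Tbx3 and Wfdc2 completed the 6, at 2.07 and 4.7, Wfdc2 with 400, 480 and 370 CPM in D542G N and 15.5, 16.6 and 1090 CPM in WT N. With 1 more library left out the call of Foxa1 held each time, and calls were lost without W1 or W2 for Wfdc2 (0.144 to 0.148), Tbx3 (0.0548 to 0.18) and Esr1 (0.0564 to 0.068), without W1 for Pgr (0.102) and without W2 for Cldn10 (0.0651).

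The luminal keratins Krt8 and Krt18 showed WT N 3 above the mutant. Krt18 was at 1580, 1360 and 1120 CPM in D542G N, against 194, 264 and 4580 CPM in WT N. Its log2 fold change was -0.31 with all libraries (adjusted p = 0.889) and 2.56 ± 0.49 without WT N 3 (0.0085). Krt8 behaved in the same way, at -0.49 (0.803) and 2.25 ± 0.42 (0.0083). Epcam, the epithelial adhesion molecule used in sorting, was at 1720, 1670 and 1600 CPM in D542G N, against 491, 579 and 1870 CPM in WT N (1.64 ± 0.25 without WT N 3, adjusted p = 0.00341). Cldn7, Krt7 and St14 were higher at 3.31, 2.84 and 1.15, and the splicing factor Esrp1 was lower at -0.91. Several hormone-sensing genes were not called in either fit: Prlr, the prolactin receptor, Areg, the EGF-family ligand amphiregulin, Gata3 and Cited1 had log2 values of 0.66, 0.15, 0.2 and 0.22 without WT N 3, all with adjusted p above 0.05. With all libraries their values were negative, at -1.83, -0.32, -0.61 and -3.29 (adjusted p 0.265, 0.831, 0.419 and 0.159). For Cited1 the levels were 64.4, 86.6 and 29.5 CPM in D542G N and 56.7, 46.7 and 1660 CPM in WT N. Stat5a, the transducer of prolactin signalling, was at 88.3, 82 and 81 CPM in D542G N and at 19.5, 35.6 and 103 CPM in WT N (1.6 without WT N 3, adjusted p = 0.0126). Of these calls without WT N 3, that of Cldn7 held with each further library left out. The others were lost without W1 for Krt8 (0.0994), Epcam (0.0511) and Stat5a (0.137), without W1 or W2 for Krt18 (0.0699 to 0.0964) and St14 (0.0793 to 0.142), without these, D1 or D2 for Krt7 (0.0527 to 0.183), and with any library left out for Esrp1 (0.0554 to 0.356).

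Basal genes gave few calls in either fit. Of 23 tested genes of the basal and myoepithelial list, 0 were called by edgeR with all libraries and 1, the sialoglycoprotein podoplanin (Pdpn), was higher without WT N 3 (2.58, adjusted p = 0.0477, lost with any further library left out at 0.0832 to 0.31). With all libraries 2 genes were higher and 2 lower at an unadjusted p under 0.05, 2 and 1 by DESeq2 and 2 and 4 by limma-voom. Krt14 was at 12100, 9910 and 12000 CPM in D542G N, against 13800, 19500 and 2170 CPM in WT N (-0.06 ± 1.04, adjusted p = 0.989). Krt5 was at 2010, 2710 and 2470 CPM in D542G N, against 10700, 14900 and 1670 CPM in WT N (-1.92 ± 1.34, adjusted p = 0.48). Krt15, a keratin of basal and stem-like epidermal cells, was at 2890, 3130 and 2970 CPM in D542G N, against 24600, 25000 and 2900 CPM in WT N (-2.55 ± 1.12, adjusted p = 0.245). For Krt5 and Krt15 the D542G N libraries lay near WT N 3 and below WT N 1 and 2. Trp63, the basal lineage factor, was at 700, 712 and 691 CPM in D542G N, against 1160, 1170 and 116 CPM in WT N (-0.22 ± 1.26). The contractile genes Acta2 and Oxtr had log2 fold changes of -0.2 and -0.31 with adjusted p of 0.907 and 0.857.

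**Figure D4:**
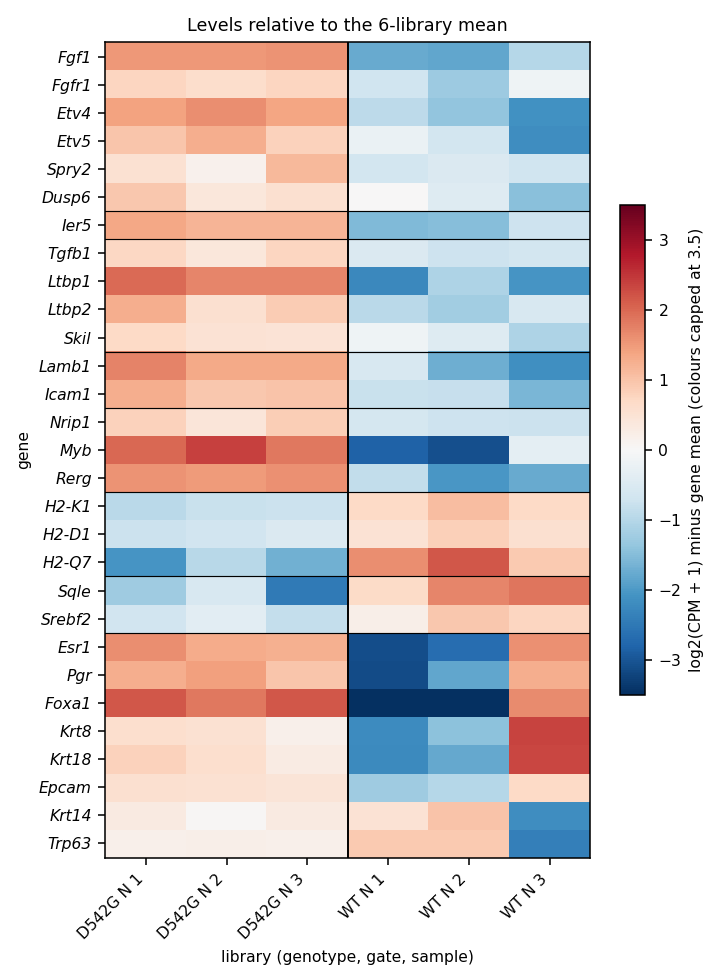
Levels of 29 genes discussed in the text in each of the 6 libraries, as log2(CPM + 1) minus the gene's mean over the 6 (colour), in blocks of growth factor, TGF-beta, adhesion, estrogen-responsive, MHC class I, sterol, luminal and basal genes, with Ier5 in a block of its own. The growth factor and TGF-beta genes shown are those called higher with all libraries. They separate D542G N from all 3 WT N libraries, as do all 294 higher genes. In each of the 2 full lists of 24 genes, every D542G N library lay above every WT N library in 10 and below in 3. Esr1, Pgr, Foxa1, Krt8, Krt18 and Epcam, shown whatever their calls, lie in WT N 3 with D542G N or above it.

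The largest falls with all libraries included Slc46a2, a solute carrier, Atp8a2, a phospholipid flippase, Adgrl3, an adhesion receptor of the latrophilin family, and the PAR bZIP factor Hlf. Slc46a2 was at 0, 0.357 and 0 CPM in D542G N, against 12.8, 9.59 and 2.69 CPM in WT N (-6.06 ± 1.29, adjusted p = 0.0252). Adgrl3 was at 1.49, 2.91 and 0.868 CPM in D542G N, against 52, 36.2 and 14.4 CPM in WT N (-4.28 ± 0.72, adjusted p = 0.00829). In both genes WT N 3 was the lowest of the WT N libraries and still above every D542G N library. Hlf was at 2.69, 14.7 and 2.35 CPM in D542G N, against 78.8, 116 and 44.4 CPM in WT N (-3.59 ± 0.86, adjusted p = 0.0425), and its antagonist Nfil3 rose (1.39 ± 0.31, adjusted p = 0.0309). Syne3, a nesprin of the nuclear envelope, was at 0.577, 0.555 and 0.328 CPM in D542G N, against 8.68, 3.93 and 4.49 CPM in WT N (-3.54 ± 0.56, adjusted p = 0.00629), and was the 1 of the 12 lowest that was called with each library left out. Il6ra, the interleukin-6 receptor, and Prdm1, the repressor Blimp-1, changed by -3.36 ± 0.76 (adjusted p = 0.0349) and -3.33 ± 0.8 (0.0437). The others were Dlg2, Upb1, Sectm1b, Maob, which encodes monoamine oxidase B, and Pid1, between -3.73 and -3.32. By the rule that chose these 12 genes, no D542G N library overlapped WT N.

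The direction of the 12 lowest genes held with each library left out, which the rule of no overlap all but fixed in advance. The remaining 11 calls did not hold with each library left out in turn. They were lost without D1 or D3 for Adgrl3 (adjusted p 0.053 to 0.0591), and without D1, D3, W1 or W2 for Slc46a2 (0.067 to 0.0995), Atp8a2 (0.0535 to 0.136), Dlg2 (0.0998 to 0.183), Hlf (0.0952 to 0.184) and Maob (0.0519 to 0.11). For Upb1, Sectm1b, Il6ra, Prdm1 and Pid1 they were lost without any of D1, D2, D3, W1 or W2 (0.0514 to 0.181 over the 5 genes), and for Nfil3 without D1, D3 or W2 (0.0975 to 0.129). The epidermal genes moved beside these falls, Krt10 being at 15.1, 386 and 10.2 CPM in D542G N and at 1640, 4860 and 256 CPM in WT N (-4.04, adjusted p = 0.397), and their part in them was not tested. Of 19 tested epidermal genes, 1 was called (0.82% of all genes tested were called lower), with a list median of -3.28. It was the skin protease Asprv1, which was lower (-2.79 ± 0.67, adjusted p = 0.0436, lost without any of D1, D2, D3, W1 or W2 at 0.103 to 0.191).

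**Figure D5:**
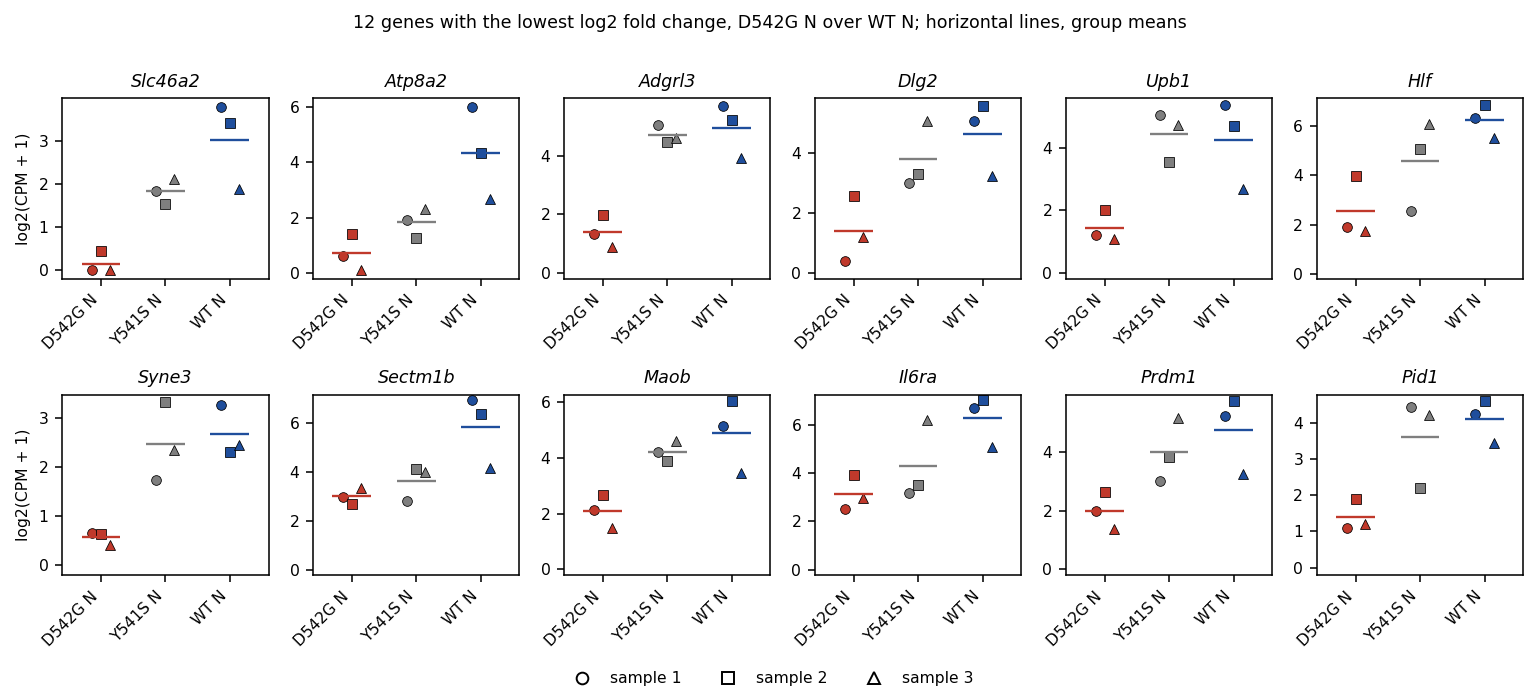
Levels in log2(CPM + 1) of the 12 genes with the lowest log2 fold changes in each D542G N, Y541S N and WT N library, with symbols for sample numbers and horizontal lines for group means. All D542G N points lie below all WT N points, and WT N 3 is the lowest WT N library for 11 of the 12 genes.

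Genes of MHC class I, whose products present peptides to CD8 T cells, were among those that fell. Of 16 tested genes of MHC classes I and II, the 3 called were lower (0.82% of all genes tested were), with a median log2 fold change of -0.81. DESeq2 called 7 of them lower and limma-voom 8, tools that called 4.6% and 11% of all genes lower. H2-K1 was at 511, 569 and 583 CPM in D542G N, against 1590, 2050 and 1580 CPM in WT N (-1.65 ± 0.29, adjusted p = 0.01). H2-D1 was at 1070, 1120 and 1260 CPM in D542G N, against 2560, 3210 and 2650 CPM in WT N (-1.28 ± 0.3, adjusted p = 0.0383). In both genes the 3 WT N libraries, sample 3 included, lay close together and well above D542G N. H2-Q7 was at 8.82, 20.2 and 12 CPM in D542G N, against 127, 187 and 76.5 CPM in WT N (-3.25 ± 0.68, adjusted p = 0.0234). These genes are related in sequence, so reads may be split among them, which was not checked, and the single values are uncertain. Calls were lost without D1 or D3 for H2-K1 (0.0515 to 0.0657) and without any of D1, D2, D3, W1 or W2 for H2-D1 (0.0812 to 0.161) and H2-Q7 (0.053 to 0.126). Their regulator Nlrc5 was also lower when WT N 3 was left out (-1.94, adjusted p = 0.0114, lost without W1 or W2 as well at 0.0562 to 0.0926), while the class II genes H2-Ab1 and Cd74 had log2 values of 0.93 and 0.69 with all libraries and adjusted p of 0.374 and 0.709. Of 24 interferon-responsive genes 0 were called by edgeR with all libraries, against 2 higher and 3 lower at an unadjusted p under 0.05, 2 and 2 by DESeq2 and 4 and 2 by limma-voom. Without WT N 3 edgeR called 4 higher and 1 lower (4.21% and 2.8% of all genes in that fit), with a list median of 0.51. Irf1, an interferon-induced transcription factor, was at 648, 1030 and 697 CPM in D542G N and at 259, 317 and 388 CPM in WT N (1.3 ± 0.33, adjusted p = 0.0522). It was called higher by edgeR without WT N 3, a call lost with any further library left out (0.0574 to 0.22).

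Genes of cholesterol synthesis were lower in part. Of 23 tested genes of sterol and fatty acid synthesis, the 2 called were lower (0.82% of all genes tested were), with a median log2 fold change of -1.18. DESeq2 called 7 of them lower and limma-voom 13, against the same 4.6% and 11% of all genes. In 12 of the 23, every D542G N library lay below every WT N library and in 1 above, against 11% and 13% of all genes tested. Sqle, the squalene epoxidase, was at 22.3, 36.5 and 8.94 CPM in D542G N, against 87, 177 and 199 CPM in WT N (-2.77 ± 0.61, adjusted p = 0.031). Srebf2, the transcription factor that drives this pathway, was at 89.6, 110 and 79.1 CPM in D542G N, against 166, 274 and 240 CPM in WT N (-1.29 ± 0.31, adjusted p = 0.04). With WT N 3 left out, the synthesis enzymes Hmgcs1, Cyp51 and Dhcr7 were lower too, at -2.65, -2.33 and -1.74, with calls lost on leaving out any further library for Hmgcs1 (0.0718 to 0.238) and Cyp51 (0.0567 to 0.291), and D1, D3, W1 or W2 for Dhcr7 (0.0537 to 0.0971). The fatty acid synthase gene Fasn was at 115, 85.1 and 64.6 CPM in D542G N and at 77.7, 114 and 84.4 CPM in WT N (-0.06, adjusted p = 0.954). Calls were lost without D1, D3 or W2 for Sqle (0.0842 to 0.136) and without any of D1, D2, D3, W1 or W2 for Srebf2 (0.0507 to 0.172).

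Single members of further lists were called, beside 1.61% of all genes tested called higher and 0.82% lower. Sgk1, a kinase gene induced by glucocorticoids and progestins, was at 3800, 2830 and 3330 CPM in D542G N, against 1550, 706 and 1120 CPM in WT N (1.56 ± 0.28, adjusted p = 0.0113), and was the 1 of 19 progesterone-responsive genes that rose (1.61% of all genes tested did). Other glucocorticoid targets were lower without WT N 3: Fkbp5, Tsc22d3, Zbtb16 and Dusp1 had log2 values of -2.44, -2.43, -2.37 and -1.58, so these targets did not move one way. Of 16 tested genes of the glucocorticoid and androgen list, 1 was higher and 4 lower in that fit, with a median of -0.06. Over all genes in that fit 4.21% were higher and 2.8% lower. Calls in that fit were lost with any further library left out for Zbtb16 (0.0835 to 0.238) and without D1, D3, W1 or W2 for Tsc22d3 (0.131 to 0.166). Sox4, a transcription factor of progenitor cells, was at 1320, 1140 and 2900 CPM in D542G N, against 402, 149 and 518 CPM in WT N (2.33 ± 0.44, adjusted p = 0.0162). Ndrg1, a hypoxia-induced gene, rose (1.73 ± 0.4, adjusted p = 0.0386), as did Trib3, a pseudokinase of the stress response (2.14 ± 0.46, 0.0258), and Lurap1l (1.68 ± 0.28, 0.00761). The glycolytic enzyme gene Pfkp fell (-1.82 ± 0.43, adjusted p = 0.0391), and so did Cdkn2c, an inhibitor of CDK4 and CDK6 (-2.03 ± 0.34, 0.00786), Pparg, the adipogenic nuclear receptor (-1.81 ± 0.44, 0.044), and Cd34, a sialomucin of stromal and skin progenitor cells (-3.14 ± 0.75, 0.0425). Pparg was at 5.62, 7.19 and 5.51 CPM in D542G N, against 20.2, 23.7 and 20.3 CPM in WT N. Of these, Lurap1l was called with each library left out, and calls were lost without D1 for Sgk1 (0.0591) and Cdkn2c (0.0531), without D3 or W1 for Sox4 (0.0554 to 0.0843), without D1, D3 or W1 for Trib3 (0.0855 to 0.102), and without any of D1, D2, D3, W1 or W2 for Ndrg1 (0.0671 to 0.126), Pfkp (0.0949 to 0.16), Pparg (0.0975 to 0.178) and Cd34 (0.103 to 0.188).

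When WT N 3 was left out, further genes came to the ends of the list. Itih2, a hyaluronan-binding inhibitor chain, was at 43.2, 29.7 and 38.7 CPM in D542G N, against 0.151, 0 and 21.2 CPM in WT N (adjusted p = 0.00296 without WT N 3). Stk36 was at 7.08, 9.33 and 9.76 CPM in D542G N, against 0.0754, 0 and 4.93 CPM in WT N (0.00168), and the lectin Reg3g at 10.6, 14.5 and 15.4 CPM in D542G N, against 0, 0.129 and 15 CPM in WT N (0.0182). WT N 1 and 2 lie near the floor of 3 counts for these 3 genes, so no fold change is given for them. R3hdml, the heparan sulfate sulfotransferase Hs6st2 and the gluconeogenic enzyme Fbp1 had log2 values of 8.37, 6.82 and 6.56. Fbp1 was at 252, 190 and 168 CPM in D542G N and at 1.96, 2.35 and 16 CPM in WT N. Among the falls, Gjb2, the gap junction protein connexin 26, was at 2.4, 1.53 and 2.53 CPM in D542G N, against 227, 43.6 and 6.68 CPM in WT N (-5.97 ± 1.47, adjusted p = 0.027). Adgrv1, Tmc7, Slc7a8, the natriuretic peptide gene Nppc and the keratin Krt80 followed at -5.54, -4.94, -4.79, -4.7 and -4.59. With all libraries none of these 12 genes was called by edgeR, and their adjusted p lay between 0.0509 and 0.675. With 1 more library left out the calls of Itih2, R3hdml and Stk36 held, that of Adgrv1 was lost without W1 (0.0689), and those of the other 8 were lost in 2 to 5 of the 5 fits (0.0532 to 0.385).

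In the ML gate the same genotypes gave 0 higher and 0 lower genes of 18298 by edgeR (0%), with 537 and 592 at an unadjusted p under 0.05, 55 and 38 by limma-voom (0.301% and 0.208%) and 42 and 68 by DESeq2 (0.23% and 0.372%). The WT ML libraries were spread, with a median within-group SD of 0.356 in log2(CPM + 1), against 0.394 in WT N and 0.261 in D542G ML. Basal and myoepithelial genes summed to 10300, 7100 and 694 CPM in WT ML 1 to 3, against 458, 661 and 1030 CPM in D542G ML. The part of this spread in the ML calls and in the differences between gates was not tested. The difference between the gates was tested directly: in 19 genes (0.104%) the D542G effect was higher in N than in ML and in 1 gene (0.00547%) lower. Without WT N 3 these were 119 and 30 genes (0.622% and 0.157%). The highest differences were in Sncaip, Rerg and Ltbp1, at log2 4.44 (adjusted p = 0.0189), 4.03 (0.0174) and 3.99 (0.0187). Rerg was at 6.07, 6.51 and 14.3 CPM in D542G ML and at 19.1, 21.8 and 10.3 CPM in WT ML, and its D542G N levels of 122 to 132 CPM were above all of these. The single lower gene was Chp1, a calcineurin-like calcium-binding protein. It was at 63.3, 59.5 and 51.9 CPM in D542G N, against 156, 142 and 150 CPM in WT N, and at 130, 137 and 133 CPM in D542G ML, against 90.7, 114 and 150 CPM in WT ML (difference -1.53, adjusted p = 0.0324). Fgf1, Lamb1 and Ier5 differed between gates by 2.53 (0.0307), 3.87 (0.0277) and 2.61 (0.00311), whereas for Il33 the difference was 0.85 (0.888): its levels were 336, 195 and 158 CPM in D542G ML and 0.288, 5.12 and 37.5 CPM in WT ML. Leaving out 1 N or ML library at a time gave 3 to 119 higher and 0 to 30 lower genes, with 3 higher without D542G N 3 or D542G ML 1. The difference was called in each of these 12 fits for Ier5, in 8 for Rerg, 6 for Sncaip and Ltbp1, 3 for Lamb1, 2 for Chp1 and 1 for Fgf1, with adjusted p of at most 0.145 in the others.

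Against the N cells of the other mutant, Y541S, 77 genes (0.421%) were higher and 184 (1.01%) lower in D542G N. This comparison shares the D542G N libraries with the one against WT. The Y541S N libraries were mixed, with a median within-group SD of 0.318 in log2(CPM + 1). On the first principal component Y541S N 1 to 3 lay at 51.1, 33.2 and 78.5, sample 3 beside WT N 1 and 2. Their differentiating epidermis genes summed to 248, 281 and 14900 CPM, and their milk and alveolar genes to 1880, 38900 and 2030 CPM. The part of this spread in the calls was not tested beyond leaving out single libraries. The highest were Prune2, Ces2g, a carboxylesterase, and Sel1l3, at log2 3.8 (adjusted p = 0.0225), 3.79 (0.0497) and 3.59 (0.0455). Ces2g was at 96.3, 224 and 236 CPM in D542G N, 12.2, 11.2 and 16.9 CPM in Y541S N and 68.6, 33.3 and 2.61 CPM in WT N. By the naming rule the 3 lowest were Colgalt2, a collagen galactosyltransferase, Postn, the matrix protein periostin, and Slc2a13, an inositol transporter, at -5.44 (0.00679), -4.65 (0.00986) and -4.59 (0.00806). Postn was at 105, 192 and 69.1 CPM in D542G N, 5160, 2090 and 1940 CPM in Y541S N and 495, 525 and 285 CPM in WT N. The contractile genes Acta2 and Oxtr were lower than in Y541S N as well, at -3.7 (0.0164) and -3.99 (0.0183): Oxtr was at 75.7, 81.2 and 71 CPM in D542G N, against 1810, 1180 and 623 CPM in Y541S N. Nrip1 and Sgk1 were higher than in Y541S N, at 1.32 (0.00224) and 1.52 (0.0145), whereas Fgf1, Ltbp1 and Etv5 had log2 differences of 0.85, 1.2 and 0.07 with adjusted p of 0.197, 0.188 and 0.975. Leaving out 1 library at a time gave 19 to 85 higher and 37 to 209 lower genes, with the fewest without D542G N 1. Nrip1 and Ier5 were called in each of these 6 fits, Colgalt2, Postn and Slc2a13 in 4 (lost without D1 or D3), Sgk1 in 3, Acta2 in 2, Prune2 and Oxtr in 1, and Ces2g and Sel1l3 in 0, with adjusted p of at most 0.184 in the others.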

How the data were processed

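RNA was taken from sorted mammary cells and sequenced from Nextera XT libraries, per the labels' protocols. The authors deposited 1 table of raw read counts and RPKM values per gene and library; the genome build is GRCm38, per the submitters' processing notes, and no source used here names the aligner or counter. The deposited counts were used for every result and the RPKM values the authors gave were not. Whether counting used strand is not stated, so 43 of the 111 genes selected under the rules below that overlap another gene are less certain. Counts of 18298 genes that passed filterByExpr (minimum count 10, total 15) were fitted with edgeR 4.0.16 (R 4.3.3; quasi-likelihood, TMM, 6 group means over 18 libraries, 12 residual degrees of freedom) and called at a Benjamini-Hochberg adjusted p below 0.05; limma 3.58.1 (voom with quality weights) and DESeq2 1.42.0 were alternatives. The script was tested on simulated data. The SE is the log2 fold change divided by the root of F.

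Named genes were the 12 highest and 12 lowest called genes of average log2 CPM of at least 2 with no overlap, the next 6 each way without WT N 3, 20 receptor and lineage genes, up to 3 genes per list by p in each fit, and the 3 highest and lowest of the other contrasts, passing over predicted genes; other list members were named after their values were seen, and some genes are not reported here. Lists (44 with 740 genes, 693 tested) and members were chosen with earlier results of these data known. The design text calls the samples biological replicates. That text gives no pairing, and the fits used none except where a block is named. Same-numbered N and ML libraries of 1 genotype had correlations of deviations of 0.166 to 0.553 in the 9 pairs. Most unlike-numbered pairs had negative values, but WT ML 1 with WT N 2 had 0.192 and WT ML 2 with WT N 1 had 0.164. Whether the numbers mark the same animal is not known. No 2 replicates agreed within sampling noise. At 37106123 to 49507144 counts per N library, a floor of 3 counts is 0.0594 to 0.0776 CPM. Promoter windows come from RefSeq.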

Additional observations from a re-analysis of the deposited data

Results flagged for a closer look

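In 9 of the named genes the D542G effect differed between the N and the ML gate by edgeR's test of the difference itself. It was higher in N by log2 values of 4.44 for Sncaip, 4.03 for Rerg, 3.99 for Ltbp1, 3.87 for Lamb1, 3.34 for Pde4b, 2.82 for Sesn3, 2.61 for Ier5 and 2.53 for Fgf1, and lower by -1.53 for Chp1. Pde4b, a cyclic AMP phosphodiesterase gene, was at 3440, 2730 and 3900 CPM in D542G N, against 624, 649 and 611 CPM in WT N, and at 284, 339 and 332 CPM in D542G ML, against 597, 606 and 604 CPM in WT ML (adjusted p of the difference 0.000608). Sesn3, a sestrin, was at 101, 81 and 114 CPM in D542G N, against 23.6, 11.8 and 18.1 CPM in WT N (0.00311). Pde4b and Sesn3 were named after their values were seen. With 1 N or ML library left out at a time, the difference was called in all 12 fits for Pde4b, Sesn3 and Ier5, and for each of the other 6 genes it was lost in 4 to 11 fits (adjusted p 0.0502 to 0.145).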

How the results depend on the processing

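Counts of called genes moved widely with the setting. No gene named above that was called with all libraries changed direction. Of all genes called there, 294 of 294 higher and 149 of 150 lower ones had no overlap of D542G N and WT N. Leaving out 1 library could therefore hardly turn them. With all libraries 294 genes were higher and 150 lower; DESeq2 called 872 and 842, limma-voom with quality weights, which gave WT N 3 a weight of 0.18, 2084 and 2012, the 9 N libraries alone 129 and 41, the 6 compared libraries alone 104 and 20, and no filter on low counts 81 lower. Leaving out 1 library gave 80 to 806 higher and 12 to 536 lower genes. Without WT N 3 (806 and 536), DESeq2 called 1617 and 1199, limma-voom 1954 and 2182 and the 5 libraries alone 1596 and 1679, and leaving out another library gave 171 to 508 and 72 to 310. List members called numbered 26 higher and 13 lower with all libraries, 52 and 42 without WT N 3, 48 and 58 with DESeq2 and 100 and 111 with limma-voom. Sample numbers gave correlations of deviations of -0.131, 0.216 and 0.0478 between D542G N and WT N and so do not pair the genotypes; a replicate block gave 94 lower genes over 18 libraries (215 higher) and 0 higher and 0 lower over 6, and a replicate block for the difference between gates gave 14 and 1. That difference had 736 and 518 calls by limma-voom and 3 to 119 and 0 to 30 with 1 library left out. The ML comparison had 55 and 38 by limma-voom and 0 to 1 higher with 1 library left out, and D542G against Y541S 441 and 780 by limma-voom and 19 to 85 and 37 to 209 with 1 library left out. Esr1 was 1.27 with all libraries (0.73 to 4.38 with 1 library left out), 4.19 (adjusted p = 0.000488) by limma-voom and 4.38 without WT N 3; the value without WT N 3 lost its call without WT N 1 (4.19, 0.068) or WT N 2 (4.65, 0.0564).

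Sign changes against the value with all libraries were seen in genes not called there. With 1 library left out the values ran from -0.63 to 0.15 for Areg, -2.34 to 0.66 for Prlr, -0.9 to 0.2 for Gata3, -1.02 to 2.25 for Krt8, -0.84 to 2.56 for Krt18, -0.6 to 0.82 for Acta2 and -0.64 to 0.38 for Oxtr, the upper end being that without WT N 3 in each; they ran from -0.55 to 0.52 for Krt14 and from -0.73 to 0.14 for Trp63, the lower end being that without WT N 3. Limma-voom gave 0.27 for Areg, 0.46 for Prlr, 0.13 for Gata3, 0.02 for Ccnd1, 2.2 for Krt8, 2.41 for Krt18, 0.92 for Acta2 and 0.44 for Oxtr. A replicate block over 6 libraries gave 1.14 for Krt8, 1.4 for Krt18, 0.36 for Krt14, 0.18 for Acta2 and 0.27 for Trp63, and over 18 libraries 0.1 for Acta2. The causes were not tested. Each N library held at least 37106123 counts, so counting error is small beside the spread between libraries except for genes near the floor, such as Slc46a2 and En2.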

Other observations

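Further genes, all named after their values were seen, showed large differences. Ghr, the growth hormone receptor, was at 470, 660 and 694 CPM in D542G N, against 115, 116 and 61.2 CPM in WT N (2.64 ± 0.35, adjusted p = 0.00231), and was called with each library left out. No count was found in WT N for 13 of the 294 higher genes. Among them Mchr1, a melanin-concentrating hormone receptor, was at 10.2, 9.71 and 8.4 CPM in D542G N, at least 125-fold higher against a floor of 3 counts per library (adjusted p = 0.016). The call was lost without D542G N 1, WT N 1 or WT N 2 (adjusted p 0.05 to 0.0586).

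Cell cycle genes summed to 612, 536 and 420 CPM in D542G N, against 655, 1020 and 397 CPM in WT N, and 0 of the 24 were called by edgeR, against 1 lower at an unadjusted p under 0.05, 0 by DESeq2 and 4 lower by limma-voom. Foxj1, the master factor of motile cilia, was at 28.1, 45.5 and 39.4 CPM in D542G N, against 2.82, 4.94 and 17.4 CPM in WT N (2.17 ± 0.55, adjusted p = 0.0534; 3.28 without WT N 3, 0.00263, held with each further library left out). Rora, a clock nuclear receptor, was at 72, 85.5 and 82.4 CPM in D542G N, against 447, 555 and 126 CPM in WT N (-2.23, adjusted p = 0.0754; -2.65 without WT N 3, 0.0179, lost with any further library left out at 0.0519 to 0.107). Elf5 and Kit, genes of luminal progenitors, had log2 values of -1.53 and -1.34 with adjusted p of 0.395 and 0.27.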
